A study of Mus musculus with 6 samples.

Results

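The genes described here encode subunits of the mitochondrial respiratory chain, measured here in cerebellum from mice lacking L1cam and from wild type siblings. They were chosen by name alone: every probe set whose single gene symbol begins with Nduf, Uqcr, Atp5 or Cox4 to Cox8, or is Sdha, Sdhb, Sdhc, Sdhd, Cyc1 or Cycs. The pattern took 101 probe sets for 73 genes, out of 12422 probe sets and 8251 genes with a single symbol on the array. By complex these were 29 genes of complex I, 4 of complex II, 8 of complex III, 15 of complex IV and 14 of complex V, with cytochrome c (Cycs) and 2 complex I assembly factors (Ndufaf1 and Ndufaf4) that share the name prefix. A gene is represented by its probe set with the highest mean unless others are named. A further 10 probe sets that list a matching gene together with another gene or a pseudogene were left out.

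The study set 3 male L1CAM knockout mice (-/Y) against 3 wild type siblings at postnatal day 11, all of strain 129S2/SvPasCrlf, with 1 Affymetrix U74Av2 array per mouse. L1cam encodes a neuronal cell adhesion molecule on the X chromosome. The sex of the wild type mice and the way the gene was disrupted are not in the labels. RNA came from the whole cerebellum, so fewer cells of a type and less RNA per cell cannot be told apart.

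The respiratory chain sits in the inner mitochondrial membrane. Complex I takes electrons from NADH and complex II from succinate. Both pass them through ubiquinone to complex III, which hands them by way of cytochrome c to complex IV, where oxygen is reduced. Complexes I, III and IV pump protons, and complex V, the ATP synthase, uses the returning protons to make ATP. Part of the core of every complex except II is encoded in mitochondrial DNA. The rest of the core and the other subunits come from nuclear genes whose products are imported. Firing neurons such as Purkinje cells spend much ATP on ion pumping, which makes the chain prominent in brain tissue. No probe set carried the symbol of a mitochondrially encoded subunit, so those genes are not analysed here. Several nuclear subunits that define a complex, among them Uqcrfs1 and the beta subunit of ATP synthase, were likewise not analysed here.

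Arrays correlated with each other at 0.995 to 0.997 over all probe sets. Array medians ran from 8.87 to 8.94, and the SD over all probe sets from 1.74 to 1.79. Tissue markers were bright in part. Of the measured markers, 5 of 8 for granule neurons and 4 of 6 for Purkinje cells lay at or above the 90th percentile of mean level. The lowest lay at percentiles 45.5 and 11.4. Zic1, a transcription factor of granule neurons, read 13.97 to 14.08, and Pcp2, a Purkinje cell gene, 13.00 to 13.18. L1cam read 8.79, 8.48 and 8.73 in wild type 1 to 3 and 8.25, 8.01 and 7.91 in knockout 1 to 3, lower in every knockout array. The array labelled knockout 1 stood apart. Its Y-linked genes Eif2s3y and Uty read 7.11 and 6.67, against at least 8.59 and 7.32 in the other 5 arrays, although the labels call the mouse male. Its 3′ Gapdh control probe set read 0.67 log2 above the 5′ one, against at most 0.13 in the other arrays. The median differences of all members and of each complex are given with and without it, as are defining subunits that it moved by over 1.5 times. Medians of the other lists are given only with it.

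Most members gave bright signals: 46 of the 73 lay at or above the 90th percentile of mean level over all probe sets, and the median member lay at percentile 94.2, against 58.2 over all genes. Brightness depends on the probes as well as on the transcript, so it orders no 2 genes by abundance. Complex III was brightest as a group, with its 8 genes at percentiles 95.5 to 99.6. Complex IV was the most mixed, with 7 of 15 genes at or above the 90th percentile and the lowest member, Cox8a, at percentile 10.2. Cox8a encodes the broadly expressed form of a small complex IV subunit, and a dim probe set does not show that its transcript is scarce. Of the 21 genes with 2 or more probe sets, several spanned most of the range: Ndufb10 read at percentile 91.8 with one probe set and 11.7 with the other.

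No respiratory chain gene passed the test between genotypes. In limma, a moderated linear model fitted over all 12422 probe sets with Benjamini-Hochberg adjustment, 0 of 73 genes had an adjusted p under 0.05. The background was the same, with 0% of all probe sets called, and the smallest adjusted p among the members was 0.922. L1cam itself was not called either. Its signal was 1.52-fold lower in the knockouts, a difference of -0.60 log2 (limma adjusted p = 0.841). A count of 0 therefore does not show that the members were unchanged. At an unadjusted p under 0.05 there was 1 member, Cox7a2l, against 5.22% of all genes (5.08% of all probe sets). Differences of the 73 genes ran from -0.13 to 0.18 log2 (knockout minus wild type), with 36 higher and 37 lower in the knockouts and a median of -0.007. Over all 8251 genes 38.3% were higher and the median was -0.022. The split depended on scaling: after median centring 46 of the 73 were higher, after quantile normalization or cyclic loess 33. It also depended on single arrays. Without wild type 1 the median was -0.050 with 19 genes higher, without wild type 2 it was 0.060 with 51 higher, and without knockout 1 it was -0.017 with 29 higher. Single genes moved by up to 0.108 without knockout 1, and 13 of the 73 changed sign. Among the cell markers, blood genes (5 measured of 8) summed to 29633 to 33728 in wild type and 35194 to 39669 in knockouts, with 3 of 5 higher and 2 lower in the knockouts. All 7 measured oligodendrocyte markers had lower knockout means, with a median difference of -0.14 and overlapping arrays. The knockouts were uneven, with median deviations from the genes' own means of -0.259 in knockout 1, -0.031 in knockout 2 and 0.10 in knockout 3. The part of the blood and oligodendrocyte markers in the members' differences was not tested.

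The intervals bound the difference in probe-set signal, not in transcript level, and dim members could hardly show a difference. The 95% intervals of the 73 genes lay between -0.34 (Ndufb8) and 0.41 (Ndufa6), all short of the 0.58 log2 that a 1.5-fold difference would be. The median half-width was 0.18. The 2 genotypes did not overlap for 2 of the 73 genes, against 10.7% of all genes: Cox7a2l was higher in the knockouts, as were 4% of all genes, and Atp5g1 was lower, as were 6.69%. Counted over all 101 member probe sets, 4 did not overlap, against 10.4% of all probe sets; the other two were probe sets of Ndufb2 and Atp5d, both lower in the knockouts. Members varied more within a genotype than other genes, with a median within-group SD of 0.117 against 0.085 over all genes and 0.090 over the 950 other genes at or above the 90th percentile.

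**Figure D1:**
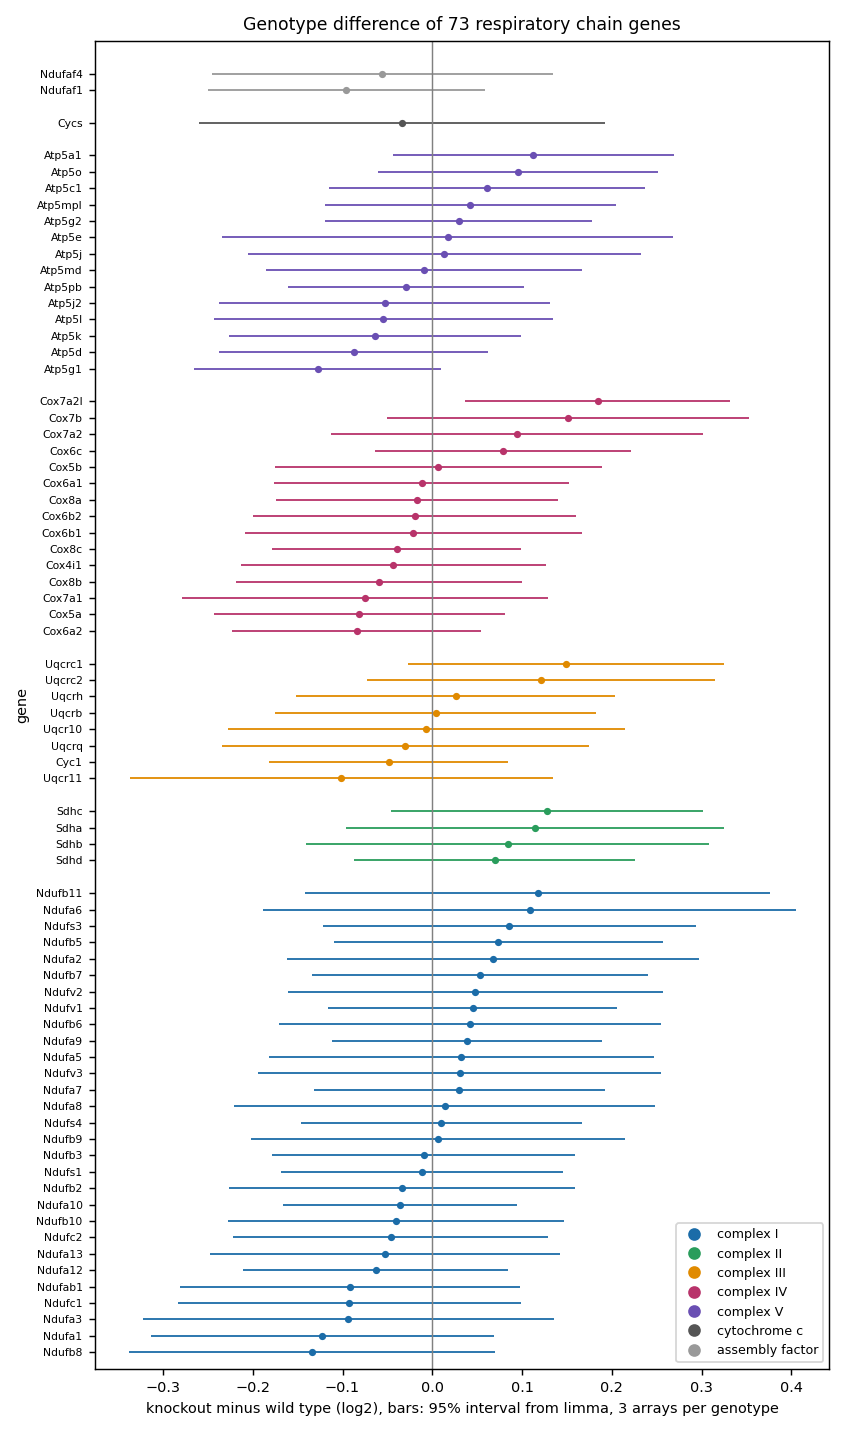
Knockout minus wild type difference on the log2 scale for each of 73 genes, coloured by complex, with points for the estimate and bars for the 95% interval from limma (3 arrays per genotype). Intervals of 72 genes cross 0; Cox7a2l, at 0.18 with an interval of 0.04 to 0.33, does not.

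Complex I, the entry point for electrons from NADH, had 16 of 29 genes higher and 13 lower in the knockouts. Their median difference was 0.010 as deposited, -0.007 by quantile normalization, 0.042 by median centring and -0.006 without knockout 1. Its defining subunits differed little. Ndufv1 encodes the subunit that binds NADH and the flavin. Its probe set read 13.01, 13.22 and 13.01 in wild type and 13.11, 13.10 and 13.17 in knockout arrays, a difference of 0.045 (SE 0.07). Ndufs1, the largest iron-sulfur subunit, read 10.97, 11.11 and 11.10 in wild type and 11.09, 10.94 and 11.11 in knockouts, a difference of -0.012 (95% interval -0.17 to 0.15) that was -0.035 without knockout 1. For Ndufv1 the knockout values lay inside the wild type range, and for Ndufs1 only knockout 2 lay just below it. Ndufv2, which carries an iron-sulfur cluster beside Ndufv1, differed by 0.048 (0.014 without knockout 1), and Ndufs3, a subunit of the same peripheral arm, by 0.086. Ndufs4, an accessory subunit of that arm whose loss causes Leigh-like disease, read 8.75, 8.87 and 8.82 in wild type and 8.72, 8.92 and 8.83 in knockouts, a difference of 0.010 (0.063 without knockout 1). Ndufab1, the mitochondrial acyl carrier protein, differed by -0.092.

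The 3 complex I genes with the smallest unadjusted p were all lower in the knockouts, and all overlapped. Ndufb8, an accessory subunit of the membrane arm, read 11.95, 12.23 and 12.27 in wild type and 11.98, 11.94 and 12.13 in knockouts, a difference of -0.13 (limma adjusted p = 0.927). Here wild type 1 sat with the knockouts and the other wild type arrays lay above them. Ndufa1, an X-linked accessory subunit, read 9.98, 9.73 and 9.83 in wild type and 9.69, 9.86 and 9.61 in knockouts, a difference of -0.12. Its second probe set differed by 0.025. Ndufc1, another small membrane subunit, differed by -0.092. Ndufb11, also X-linked, differed by 0.12, with an SD of 0.25 among the wild type arrays.

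The widest and the tightest genes of complex I differed several-fold in spread. Ndufa6, an accessory subunit, had the largest within-group SD of all members, 0.236: it read 8.18, 8.50 and 8.19 in wild type and 8.62, 8.08 and 8.50 in knockouts. Wild type 2, knockout 1 and knockout 3 were high, and the other arrays low. Ndufa10 had the smallest, 0.037, with values of 10.25, 10.20 and 10.23 in wild type and 10.18, 10.24 and 10.15 in knockouts. Of the 2 assembly factors, which help build complex I but are not part of it, Ndufaf1 differed by -0.096 and Ndufaf4 by -0.056.

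Complex II, succinate dehydrogenase, is shared with the citric acid cycle and has no mitochondrially encoded subunit. All 4 of its genes had higher knockout means, with a median of 0.099, and none passed. Sdha, the flavoprotein that oxidizes succinate, read 8.64, 9.02 and 8.92 in wild type and 8.89, 9.02 and 9.02 in knockouts, a difference of 0.115 (95% interval -0.10 to 0.33). Sdhb, the iron-sulfur subunit, read 11.51, 11.89 and 11.59 in wild type and 11.87, 11.63 and 11.74 in knockouts, a difference of 0.084 that was 0.023 without knockout 1 and 0.010 with the Gapdh gap as a covariate. In both genes wild type 1 was the lowest array and wild type 2 at or near the top, so the genotypes overlapped.

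Sdhc, a membrane anchor of complex II, read 11.96, 11.94 and 11.75 in wild type and 11.91, 12.02 and 12.10 in knockouts, a difference of 0.128 (SE 0.08, limma adjusted p = 0.927). Sdhd, the other anchor, read 11.90, 12.09 and 11.88 in wild type and 12.01, 12.06 and 12.01 in knockouts, a difference of 0.069. The 4 differences stayed above 0 under each of the other settings that measured the gene. The smallest was Sdha without wild type 1, at 0.005. The median of the 4 was 0.024 without wild type 1, 0.18 without wild type 2 and 0.119 without knockout 1.

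Complex III, the cytochrome bc1 complex, had 4 genes higher and 4 lower (median difference -0.001, and -0.025 without knockout 1). Uqcrc1, a core subunit on the matrix side, read 12.06, 12.25 and 12.01 in wild type and 12.30, 12.15 and 12.31 in knockouts. The difference of 0.15 (95% interval -0.03 to 0.33) was the largest of the complex, and knockout 2 lay inside the wild type range. The limma adjusted p was 0.922, and the 2-sided exact permutation p was 0.2, where 0.1 is the smallest that 3 arrays against 3 allow. Its partner Uqcrc2 read 11.84, 12.19 and 11.98 in wild type and 12.17, 12.06 and 12.14 in knockouts, a difference of 0.12.

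Cyc1, the cytochrome c1 that passes electrons out of complex III, was among the steadiest members. It read 13.57, 13.64 and 13.68 in wild type and 13.60, 13.55 and 13.59 in knockouts, a difference of -0.049, and its second probe set gave -0.059. The small subunit Uqcr11 differed by -0.10, and Uqcrb, Uqcrh, Uqcr10 and Uqcrq by -0.030 (Uqcrq) to 0.026 (Uqcrh). Cycs, the mobile carrier cytochrome c, read 10.09, 10.32 and 10.53 in wild type and 10.20, 10.30 and 10.34 in knockouts. All 3 knockout values fell within the wild type range, and the difference of -0.034 was 0.075 without wild type 3, 0.0056 without knockout 1 and -0.148 without wild type 1.

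Complex IV, cytochrome c oxidase, had 5 of 15 genes higher and 10 lower. Its median difference of -0.020 turned to 0.012 with median centring and to 0.027 without wild type 2, and was -0.016 without knockout 1. Cox7a2l encodes a relative of the Cox7a subunits that joins complexes III and IV in supercomplexes. It had the largest difference and the smallest unadjusted p of all members. It read 11.33, 11.34 and 11.19 in wild type and 11.52, 11.42 and 11.47 in knockouts, so every knockout array lay above every wild type array. Its difference of 0.18 log2 (SE 0.07), or 1.14-fold higher in the knockouts, did not pass in limma (adjusted p = 0.922). An exact permutation test gave p = 0.1 (2-sided), which 3 arrays against 3 cannot go below. Across the other settings its difference ran from 0.135 without wild type 3 to 0.221 with array weights, and without knockout 1 it was 0.158.

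The other Cox7 forms overlapped between genotypes. Cox7b, an X-linked subunit, read 11.18, 11.44 and 11.41 in wild type and 11.52, 11.35 and 11.61 in knockouts, a difference of 0.15 (limma adjusted p = 0.927). Cox7a2, the broadly expressed form of Cox7a, read 12.86, 13.24 and 13.13 in wild type and 13.24, 13.13 and 13.13 in knockouts, a difference of 0.095 (0.059 without knockout 1). Wild type 1 was again the low array. Cox7a1, the form of heart and skeletal muscle, was dim, at 6.45 to 6.81, and differed by -0.075.

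Subunits of complex IV with broad expression differed little between the genotypes. Cox4i1, the regulatory subunit, read 9.25, 9.46 and 9.25 in wild type and 9.35, 9.29 and 9.20 in knockouts, a difference of -0.043 (-0.078 without knockout 1). Cox5a differed by -0.081 at a dim probe set (percentile 25.4), or -0.051 without knockout 1, and by 0.003 at a dimmer second probe set. Cox5b differed by 0.007, or -0.016 without knockout 1. Cox6a1, the form of Cox6a found in most tissues, was the brightest member at 13.96 to 14.16 and differed by -0.012. The testis and somatic forms of Cox6b, Cox6b2 and Cox6b1, differed by -0.020 and -0.021. Cox6c read 12.55, 12.65 and 12.64 in wild type and 12.77, 12.64 and 12.67 in knockouts, a difference of 0.078 (0.040 without knockout 1). Its other probe sets gave 0.11 and -0.18, the widest gap between probe sets of 1 gene among the members.

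Forms of complex IV subunits known from muscle or testis gave signals too, and the genotypes overlapped. Cox6a2, the muscle form of Cox6a, read 9.57, 9.54 and 9.54 in wild type and 9.43, 9.55 and 9.42 in knockouts, a difference of -0.084. Cox8b, another muscle form, read 9.82 to 10.05 with one probe set but 6.61 to 6.71 with the other. Cox8c, a testis form, read 11.78 to 11.93 with one probe set and 6.95 to 7.16 with the other. Probe sets of the same gene thus lay far apart, and which of them reflects the transcript was not tested. The 19 muscle markers, all measured, lay at percentiles 3.53 (Myh6, a heart myosin, at 5.87 to 6.02) to 70.0, with a median of 25.8. Of them 14 had lower knockout means and 5 (26.3%) higher ones, where 38.3% of all genes were higher. The genotypes did not overlap for 4 (21.1%), 3 lower and 1 higher in the knockouts, against 10.7% of all genes. Summed on the linear scale the 19 markers read 6168 to 6556 in wild type and 5825 to 6360 in knockouts. Their part in the signals of the muscle forms was not tested.

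Complex V, the ATP synthase, had 7 genes on either side of 0. The median difference was 0.002 as deposited, -0.009 by cyclic loess and 0.034 by median centring. It was -0.065 with the Gapdh gap as a covariate, -0.062 without wild type 1, -0.060 without knockout 1 and 0.039 without wild type 2. Atp5a1, the alpha subunit of the catalytic head, read 13.15, 13.28 and 13.21 in wild type and 13.41, 13.22 and 13.34 in knockouts, a difference of 0.113 (SE 0.07, limma adjusted p = 0.927) that was 0.069 without knockout 1. Atp5c1, the gamma subunit that turns inside the head, differed by 0.061 (0.032 without knockout 1) and 0.093 at its probe sets. Atp5o, a subunit of the stalk that holds the head still, read 13.21, 13.37 and 13.31 in wild type and 13.41, 13.30 and 13.46 in knockouts, a difference of 0.095. Atp5e, the epsilon subunit, was among the most variable members, reading 11.09, 11.43 and 11.26 in wild type and 11.44, 11.04 and 11.35 in knockouts. Its difference was 0.017, and -0.062 without knockout 1. Atp5pb, a stalk subunit, was among the steadiest, with a within-group SD of 0.040 and a difference of -0.029. The small membrane subunits Atp5k, Atp5l, Atp5j2 and Atp5md differed by -0.064 to -0.009, and Atp5j and Atp5mpl by 0.014 and 0.042. The second Atp5l probe set differed by 0.073, and Atp5j was at -0.083 without knockout 1.

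Subunit c forms the rotating ring of the ATP synthase and is made from several genes with different import sequences. Atp5g1, one of them, read 11.07, 10.95 and 11.09 in wild type and 10.88, 10.93 and 10.91 in knockouts, so all knockout arrays lay lower. The difference was -0.13 (95% interval -0.27 to 0.01, limma adjusted p = 0.922, exact permutation p = 0.1). This rests on 1 probe set, whose suffix marks it as open to other transcripts. The second Atp5g1 probe set read 8.95, 8.84 and 8.82 in wild type arrays and 8.75 to 9.01 in knockouts, overlapped, and differed by 0.016. Atp5g2 differed by 0.029 and 0.059 at its probe sets. Atp5d, the delta subunit, had 5 probe sets, with differences from -0.14 to 0.026. In all, 11 of the 21 genes with several probe sets had differences of both signs.

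**Figure D2:**
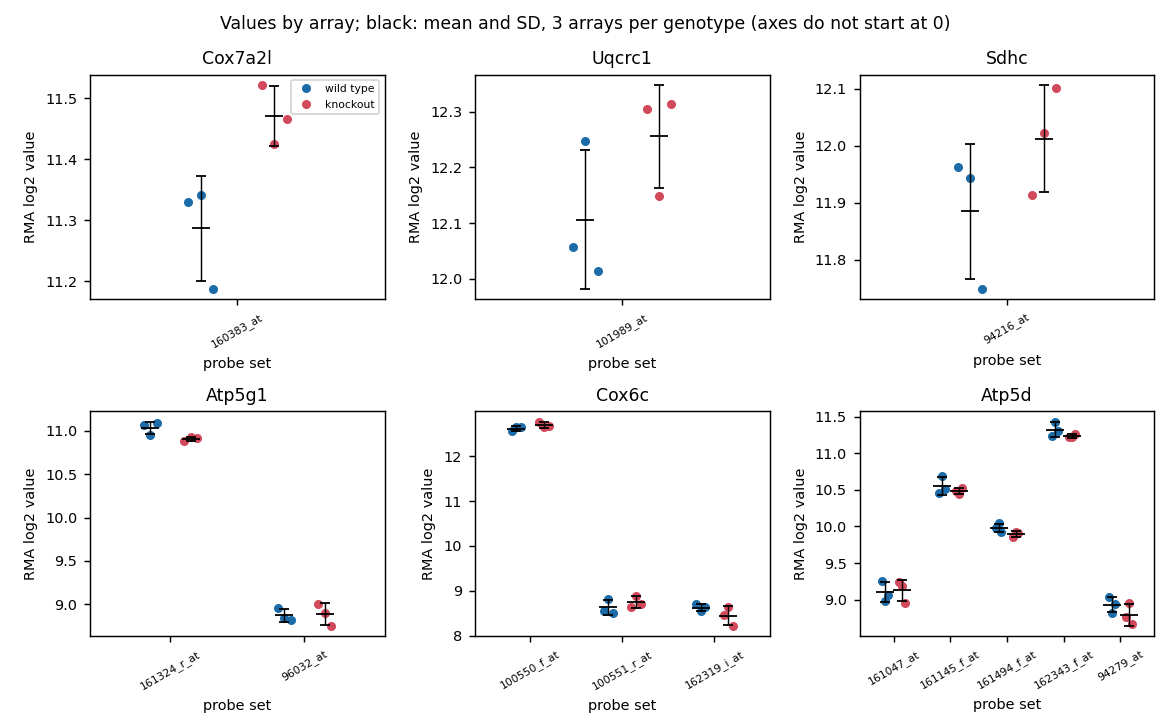
RMA log2 values of every probe set of 6 genes, with each array as a point and black bars for the mean and SD (3 arrays per genotype). Cox7a2l, 1 of the 2 Atp5g1 and 1 of the 5 Atp5d probe sets separate the genotypes, while the probe sets of Cox6c and Atp5d differ in sign.

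Members also moved together between single arrays of the same genotype. In wild type 1 only 12 of the 73 genes read above their own mean of the 6 arrays, against 59.7% of all genes. In wild type 2, 60 of the 73 did, against 51.2% of all genes. Wild type 3 was even, with 36 of 73. The knockouts also differed among themselves: 46 genes were above their mean in knockout 1, 19 in knockout 2 and 48 in knockout 3. Wild type 1 to 3 had median deviations of -0.119, 0.118 and -0.001 over the 73 genes. Knockout 1 to 3 had 0.031, -0.050 and 0.035.

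Measured gene by gene, wild type 2 lay above wild type 1 for 62 of the 73 genes, with a median of 0.244 log2. Among the other 8178 genes this held for 45.0%, with a median of -0.016. At or above the 90th percentile it held for 66.9% of the 950 other genes (median 0.055) and for 44 of the 46 members (median 0.275). Each array is 1 mouse, so this difference has no replicate and no test.

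The shift ran through most of the chain. For complex III, wild type 2 lay above wild type 1 in all 8 genes, with a median of 0.31. In complex I this held for 25 of 29 genes (median 0.28), in complex V for 13 of 14 (median 0.20) and in complex II for 3 of 4 (median 0.28). Complex IV followed less, with 10 of 15 genes and a median of 0.10. Knockout 2 was the lowest knockout array for 24 of 29 complex I genes, all 8 of complex III and 11 of 14 of complex V, but for 6 of 15 of complex IV and 1 of 4 of complex II. It was the lowest for 30.6% of all other genes and for 47.3% of the 950 other genes at or above the 90th percentile.

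**Figure D3:**
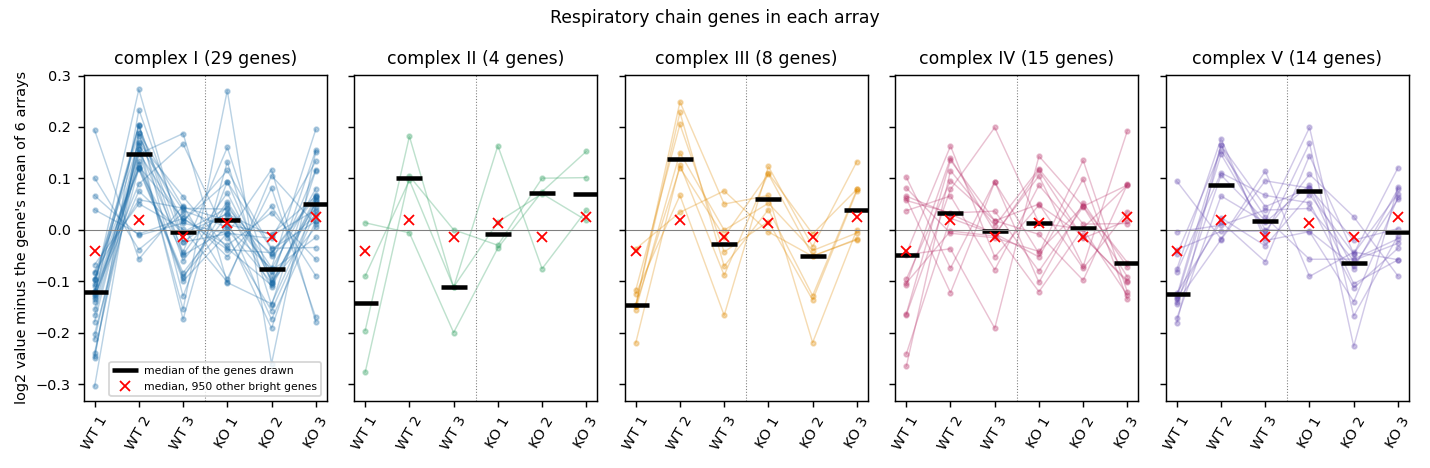
Log2 value of each gene minus its mean of 6 arrays, by complex, for wild type (WT) and knockout (KO) arrays, with lines joining a gene's values, black bars for the median of the genes drawn and red crosses for the median of 950 other genes at or above the 90th percentile. In complexes I, III and V wild type 1 lies low (medians -0.12 to -0.15) and wild type 2 high (0.09 to 0.15), and the crosses stay between -0.040 and 0.025.

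Bright probe sets in general moved in the same direction, but less. In wild type 1 the median deviation was -0.131 for the 46 members at or above the 90th percentile and -0.040 for the 950 other genes that bright. In wild type 2 these were 0.132 and 0.019. The spread of values over the whole array moved too, with an SD over all probe sets of 1.74 in wild type 1 and 1.77 in wild type 2. After quantile normalization the 46 bright members read -0.078 in wild type 1 and 0.103 in wild type 2, and the other bright genes 0.006 and -0.005. After cyclic loess the members read -0.085 and 0.108 and the other bright genes -0.001 and -0.003. The 27 members below the 90th percentile showed it less, at -0.046 and 0.059 as deposited.

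Some cell marker lists also differed between wild type 1 and wild type 2. Granule neuron markers, 8 measured of 10 listed, had 2 above their own mean in wild type 1 and 3 in wild type 2. Their median deviations were -0.047, -0.022 and 0.057 in wild type 1 to 3 and -0.021, -0.067 and 0.040 in knockout 1 to 3. Of 6 measured Purkinje cell markers (8 listed), 1 lay above its own mean in wild type 1 and 5 in wild type 2. Their median deviation was -0.127 in wild type 1, 0.070 in wild type 2, 0.108 in wild type 3 and -0.112, -0.008 and 0.027 in the knockouts. Summed on the linear scale they read 33694 to 41788 in wild type and 33447 to 37843 in knockouts. Choroid plexus markers, 4 measured of 6 listed, read 2072 to 7258 in wild type and 2210 to 7332 in knockouts when summed. Ttr, the most abundant of them, read 9.71 in wild type 1 and 10.20 in knockout 3 but 12.13 to 12.56 in the other 4 arrays. Oligodendrocyte markers, 7 measured of 8, had median deviations of -0.075, 0.080 and 0.170 in wild type 1 to 3 and -0.259, -0.031 and 0.10 in knockout 1 to 3, summing to 22550 to 27603 in wild type and 19734 to 25196 in knockouts. The Gapdh gap was 0.12 in wild type 1 and 0.10 in wild type 2. The part of brightness, cell makeup or RNA quality in the shift was not tested.

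**Figure D4:**
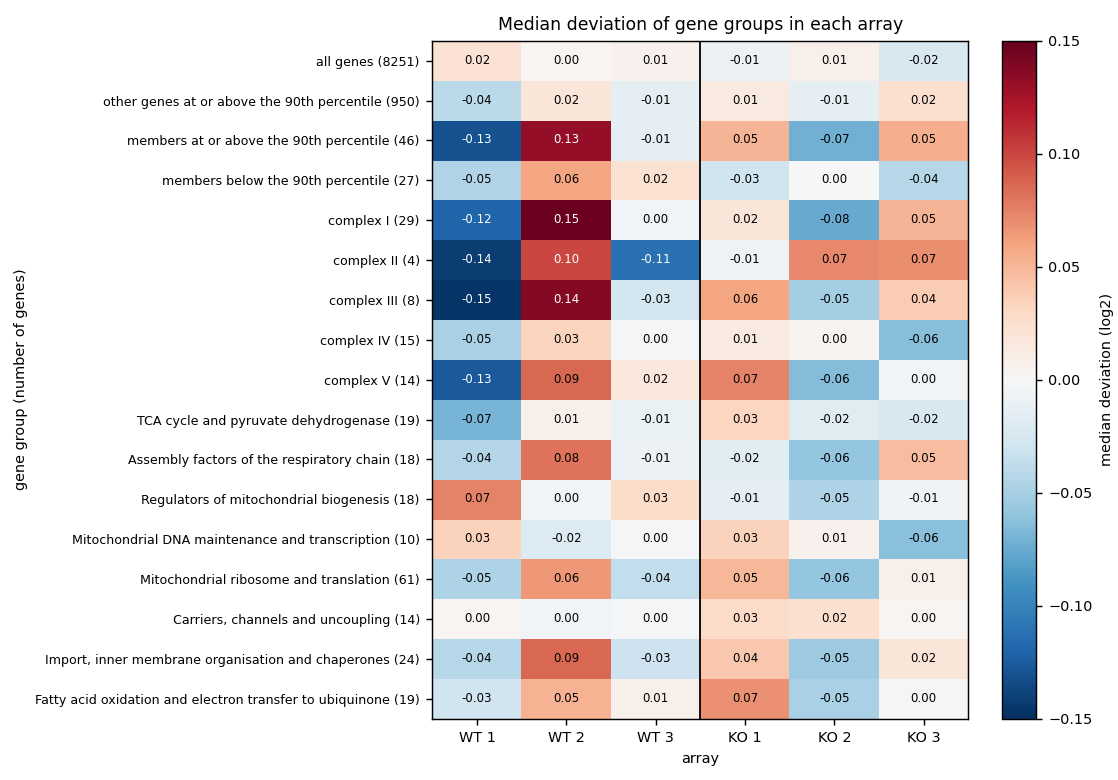
Median deviation of each gene group from its mean of 6 arrays, in log2, for every array (WT, wild type; KO, knockout), with the number of genes in parentheses; red is above and blue below the mean. Members at or above the 90th percentile read -0.13 in wild type 1 and 0.13 in wild type 2, where all genes read 0.02 and 0.00.

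Promoters of member genes are shown as a description, and their part in the shift between arrays was not tested. Nuclear respiratory factor 1 (NRF1) and the ETS factor GABP are textbook regulators of these genes. RefSeq promoter sequences of build GRCm38.p6 were found for 59 of the 73 genes, and the 250 bases before the annotated start were searched on both strands. The NRF1 letters, GCGCA and GCGC with any base between them, occurred in 9 of 59 member genes (15.3%), against 8.05% of the 6573 array genes with a promoter in the table. The GABP letters CCGGAAG occurred in 12 of 59 (20.3%), against 13.6%. YY1 letters (AAGATGGC) occurred in 1 of 59, or 1.69% against 2.10%, and the TATA box (TATAAA) in 8.47% against 10.9%. Stretches around the NRF1 letters, on the strand of the gene with the match in capitals, follow for 5 members of complexes I, II, IV and V. In Ndufa8 the letters lie on the opposite strand, so the capitals show their reverse complement. They lie at chr9:50603899-50603948 (Sdhd, minus strand), chr13:74350309-74350358 (Sdha, minus), chr2:36049339-36049388 (Ndufa8, minus), chr5:115349091-115349140 (Cox6a1, minus) and chr5:108434420-108434469 (Atp5k, minus).
Sdhd: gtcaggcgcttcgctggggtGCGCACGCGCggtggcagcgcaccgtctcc
Sdha: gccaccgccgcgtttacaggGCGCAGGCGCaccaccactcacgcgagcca
Ndufa8: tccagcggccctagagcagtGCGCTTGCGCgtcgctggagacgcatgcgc
Cox6a1: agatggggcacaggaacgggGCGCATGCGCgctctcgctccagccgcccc
Atp5k: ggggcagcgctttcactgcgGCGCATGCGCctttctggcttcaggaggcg

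Genes with and without the NRF1 letters moved alike across arrays. Median deviations in wild type 1 and wild type 2 were -0.112 and 0.097 for the 9 genes with the letters and -0.126 and 0.122 for the other 50 with a promoter in the table. Genotype differences of the 9 ran from -0.064 to 0.115, with 6 higher. A match of letters is a description and not evidence of binding.

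Lists of mitochondrial genes beyond the chain had no gene past the threshold either. The genotypes did not overlap for 0% (fat oxidation and ubiquinone) to 16.7% (assembly factors) of the genes of a list, against 10.7% of all genes. Among regulators of mitochondrial biogenesis, 14 of 18 had lower knockout means and 4 higher ones (median -0.072, against -0.022 over all genes). Yy1, a transcription factor of many respiratory genes, read 10.28, 10.56 and 10.37 in wild type and 10.08, 9.80 and 10.36 in knockouts, a difference of -0.32 (limma adjusted p = 0.922) in which knockout 3 overlapped. Ppard, a nuclear receptor of fat oxidation, differed by -0.14 with no overlap. Of 10 genes that maintain or transcribe mitochondrial DNA, 3 were higher and 7 lower. Polg, the mitochondrial DNA polymerase, read 9.01, 8.87 and 8.94 in wild type and 8.73, 8.84 and 8.75 in knockouts, a difference of -0.17 with no overlap, and Tk2 differed by 0.12.

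Genes that assemble the chain or feed it gave small differences of both signs. Of 18 assembly factors, the 2 Ndufaf members included, 4 were higher and 14 lower (median -0.043). Cox16, an assembly factor of complex IV, read 9.78, 9.77 and 9.69 in wild type and 9.99, 9.90 and 9.95 in knockouts, a difference of 0.20 with no overlap (limma adjusted p = 0.885). Acad9, which helps build complex I, differed by -0.12 with no overlap. In the citric acid cycle list 10 of 19 were higher (median 0.010). Idh3g, an X-linked subunit of isocitrate dehydrogenase, differed by 0.22 with no overlap (limma adjusted p = 0.885) and Dlat by -0.097.

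The lists that share the machinery of the mitochondrion lay close to the median of all genes. Of 61 genes of the mitochondrial ribosome and translation, 34 were higher (median 0.007), with Mrpl11 at 0.21 (no overlap) and Mrps34 at 0.14. Import genes and chaperones had 9 of 24 higher (median -0.012), with the chaperone Hspa9 at 0.23 (no overlap) and the prohibitin Phb2 at 0.22. Carriers and channels had 9 of 14 higher (median 0.020), with the outer membrane channels Vdac3 at 0.16 (no overlap) and Vdac2 at 0.13. Fat oxidation and ubiquinone genes had 9 of 19 higher (median -0.009), with Coq7 at 0.17 and Coq3 at -0.12, both enzymes of ubiquinone synthesis.

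Across arrays, several of these lists showed the same order of the wild type arrays in weaker form. Median deviations in wild type 1 and wild type 2 were -0.046 and 0.065 for the mitochondrial ribosome and -0.043 and 0.086 for import and chaperones. Citric acid cycle genes read -0.070 and 0.007. Regulators of biogenesis read 0.074 and -0.004, with 88.9% of them above their own mean in wild type 1, where the respiratory chain had 16.4%. Carriers and channels read 0.003 and -0.004.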

How the data were processed

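The deposited values are log2 expression values that the authors made with RMA, per the submitters' processing notes, with version, settings and genome build not given in the sources used here. RMA corrects background, normalizes between arrays and summarises probes, so it draws arrays towards 1 distribution and a change in total RNA per cell cannot be read. Each of the 6 columns is 1 array, grouped by the sample titles. Of 12488 probe sets 66 array controls were left out. Symbols came from the array annotation supplied with the data (single for 10833 probe sets), and all 73 member genes were found in the RefSeq gene table, used for names.

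Genotype was fitted with limma 3.58.1 in R 4.3.3 (lmFit, eBayes, 2-sided) over 12422 probe sets, with Benjamini-Hochberg adjustment at 0.05. Lists are described by counts and medians over genes, beside all genes, with no test. Samples count as replicates per the design text, 3 mice per genotype. The p-values measure the spread between these mice, and the number of arrays limits precision.

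Genes named were L1cam, defining subunits, tissue forms, the 3 smallest unadjusted p in each complex, the 4 genes whose probe sets differed most, the 3 widest and 3 tightest, and 2 per list; further members were named by role after their values were seen. Members and lists were chosen with earlier results of these data known. The motifs other than NRF1, and the comparison of wild type arrays with its alternatives, were chosen after seeing the data. Alternatives were other scalings, filters on dim or cross-hybridizing probe sets, variance settings, a replicate block, a Gapdh covariate and each array left out.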

Additional observations from a re-analysis of the deposited data

How the results depend on the processing

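The count of respiratory chain genes past the threshold was 0 under all 18 other settings, with a smallest adjusted p of 0.424 (Cox7a2l, array weights, limma). At an unadjusted p under 0.05 limma gave 1 of the 73 genes as deposited and 0 to 6 with 1 array left out. The 6 arose without wild type 2 and again without knockout 2. Over all 12422 probe sets 708 and 1078 were under 0.05 in these settings, against 631 as deposited. The median difference of the 73 genes, -0.007 as deposited, ran from -0.020 (Gapdh covariate) to 0.025 (median centring). With 1 array left out it ran from -0.050 to 0.060, so its sign was not stable. All 17 settings moved it by less than 0.090, the SD of the median deviation between arrays of 1 genotype. Leaving out 1 of 3 arrays can hardly move it further, so this does not show that the median was stable. Among all probe sets the count was 0 in the 11 other settings and 0 to 1 with 1 array left out, the 1 arising without knockout 3. Ndufs1 changed sign with median centring (0.020) and array weights (0.0048) and ran from -0.056 to 0.041 with 1 array left out; Cycs was 0.040 with the Gapdh covariate and ran from -0.148 to 0.075; Cox4i1 ran from -0.080 to 0.027; Atp5g1 was 0.016 where only probe sets without a suffix were kept. The cause was not tested. The median of wild type 2 minus wild type 1 over members ran from 0.192 to 0.266 over 6 settings added after seeing the data.

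The titles number the mice 1 to 3 in both genotypes without saying that a number marks a litter or day. Deviations of same-numbered arrays correlated at 0.160, -0.316 and 0.169, and 1 of 3 knockout arrays was closest to its own number, so the numbers were not taken as pairs. With a replicate block the counts stayed at 0 over all probe sets and 0 among members, with a smallest member adjusted p of 0.876 in limma and the same median of -0.007. With 3 arrays per genotype, intervals reached 0.18 log2 to either side at the median member, and smaller differences could not be told from 0. Dim members, such as Cox8a, Cox7a1 and Cox5a, could hardly show a difference.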
